A study of Mus musculus with 10 samples.

Results

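The genes described here are 55 genes of the cell cycle, DNA replication and mitosis in mouse kidney, chosen by gene symbol for their known function, with no filter on expression, from the 55359 genes of the deposited table. All 55 were found. They were chosen with earlier results of these data known, so their counts set beside all tested genes are descriptions. By role, 30 act in G1 or in DNA replication, 23 act in mitosis, and the other 2 encode CDK inhibitors. The IRI group was 5 kidney libraries from male mice after 30 min of ischaemia and 24 h of reperfusion, and the sham group was 5 kidney libraries from male mice after sham surgery. No genotype, strain, age or diet is given in the labels of either group, nor the interval between sham surgery and sampling. Whether the 5 libraries of a group are 5 mice is not stated either, and p-values here therefore describe spread among libraries, which may be technical. The libraries were made from poly(A)-selected RNA of whole kidney tissue.

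Progress through the cell cycle is driven by cyclin-dependent kinases (CDKs). D-type cyclins with CDK4 or CDK6, and E-type cyclins with CDK2, phosphorylate the RB protein and so release E2F factors, which switch on genes for DNA synthesis, while origins are licensed when CDC6 and CDT1 load the MCM helicase. Cyclin B with CDK1 then drives mitosis, and the anaphase-promoting complex ends it by marking proteins for destruction. Cells of the adult kidney tubule divide rarely, and surviving tubule cells are known to re-enter the cycle after ischaemic injury in mice.

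Library totals were 13147899 to 18603272 counts. IRI and sham separated on principal component 1 (63.2% of variance). IRI replicate 1 stood apart on the next component (7.07%), and mitochondrial rRNA made up 2.31% of its reads. That share was 0.214% to 0.450% for the remaining IRI libraries and 0.230% to 0.267% for sham, so counts of called genes are also given without IRI replicate 1. The tissue label was checked on 8 proximal tubule markers, which summed to 3263 to 11062 FPKM (counts scaled by exonic length and by library total) in IRI and 39080 to 55982 FPKM in sham. All 8 were called lower in IRI and at least 2-fold lower, with a median log2 fold change of -2.67. Neutrophil markers summed to 20.2 to 106.9 FPKM in IRI and 0.94 to 3.32 FPKM in sham, and all 8 of the 10 that could be tested were higher, with Ly6g, Camp, Ngp and Elane at 0 counts in sham. Erythroid markers summed to 181 to 340 FPKM in IRI and 105 to 179 FPKM in sham, and fibroblast and pericyte markers to 64.6 to 217 FPKM in IRI and 43.3 to 59.7 FPKM in sham. Of 6 erythroid markers 3 were higher and 0 lower, and of 6 fibroblast and pericyte markers 2 were higher and 1 lower. Monocyte and macrophage markers summed to 40.3 to 83.4 FPKM in IRI and 31.7 to 48.6 FPKM in sham, with 2 of 8 higher and 2 lower. T and NK cell markers summed to 1.59 to 2.54 FPKM in IRI and 2.67 to 4.94 FPKM in sham, with 5 of 8 lower and 0 higher. B and plasma cell markers summed to 4.03 to 6.68 FPKM in IRI and 12.4 to 18.4 FPKM in sham, with 6 of 7 lower. Endothelial markers summed to 89.5 to 132.9 FPKM in IRI and 55.8 to 74.5 FPKM in sham, and podocyte markers to 127 to 154 FPKM in IRI and 50.1 to 83.9 FPKM in sham. Of 6 endothelial markers 4 were higher and 1 lower, and of 4 podocyte markers 3 were higher and 0 lower. Thick limb and distal tubule markers summed to 1652 to 3181 FPKM in IRI and 949 to 1959 FPKM in sham. Their members were mixed, with 2 of 6 higher, 3 lower and a median log2 fold change of -0.09. The part of these cell types in the results below was not tested. In whole tissue, fewer cells of a type and less RNA per cell cannot be told apart.

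Of the 55 genes, 28 were higher in IRI and 2 were lower, and 25 did not pass the test (edgeR quasi-likelihood, Benjamini-Hochberg adjusted p under 0.05 over the 22543 genes with at least 10 counts in total). Over all tested genes, 27.2% were called higher and 24.9% lower, or 52.1% in either direction. All 55 passed the count floor. The median log2 fold change of the 55 genes, IRI over sham, was 0.68, and over all tested genes it was 0.05. Called genes at least 2-fold higher numbered 16 of the 55, and 1 was at least 2-fold lower, beside 13.3% and 14.7% of all tested genes. Without IRI replicate 1, 31 were higher and 1 lower, beside 26.7% and 25.3% of all tested genes. With genes instead required to reach 1 FPKM in 5 libraries, 35 of the 55 passed, and 18 were higher and 1 lower, beside 34.5% and 32.4% of the 13324 genes tested. This filter can admit a gene through the IRI group alone, as it did for Gins2, Aurka and Ube2c, so its counts are not an independent check. FPKM in every IRI library exceeded every sham library for 26 of the 55 genes, and 26.1% of tested genes did so.

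Of the 30 G1 and replication genes, 16 were higher (53.3%) and 0 lower, with a median log2 fold change of 0.71. Of the 23 mitotic genes, 12 were higher (52.2%) and 1 lower, with a median of 0.79. The count of 0 lower genes in the G1 and replication arm was also 0 at an unadjusted p under 0.05 with edgeR, and 0 with DESeq2 and with limma. The difference between the arms was not tested. The mitotic genes lay at lower levels, since 17 of 23 averaged under 1 FPKM, against 5 of 30 G1 and replication genes.

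**Figure D1:**
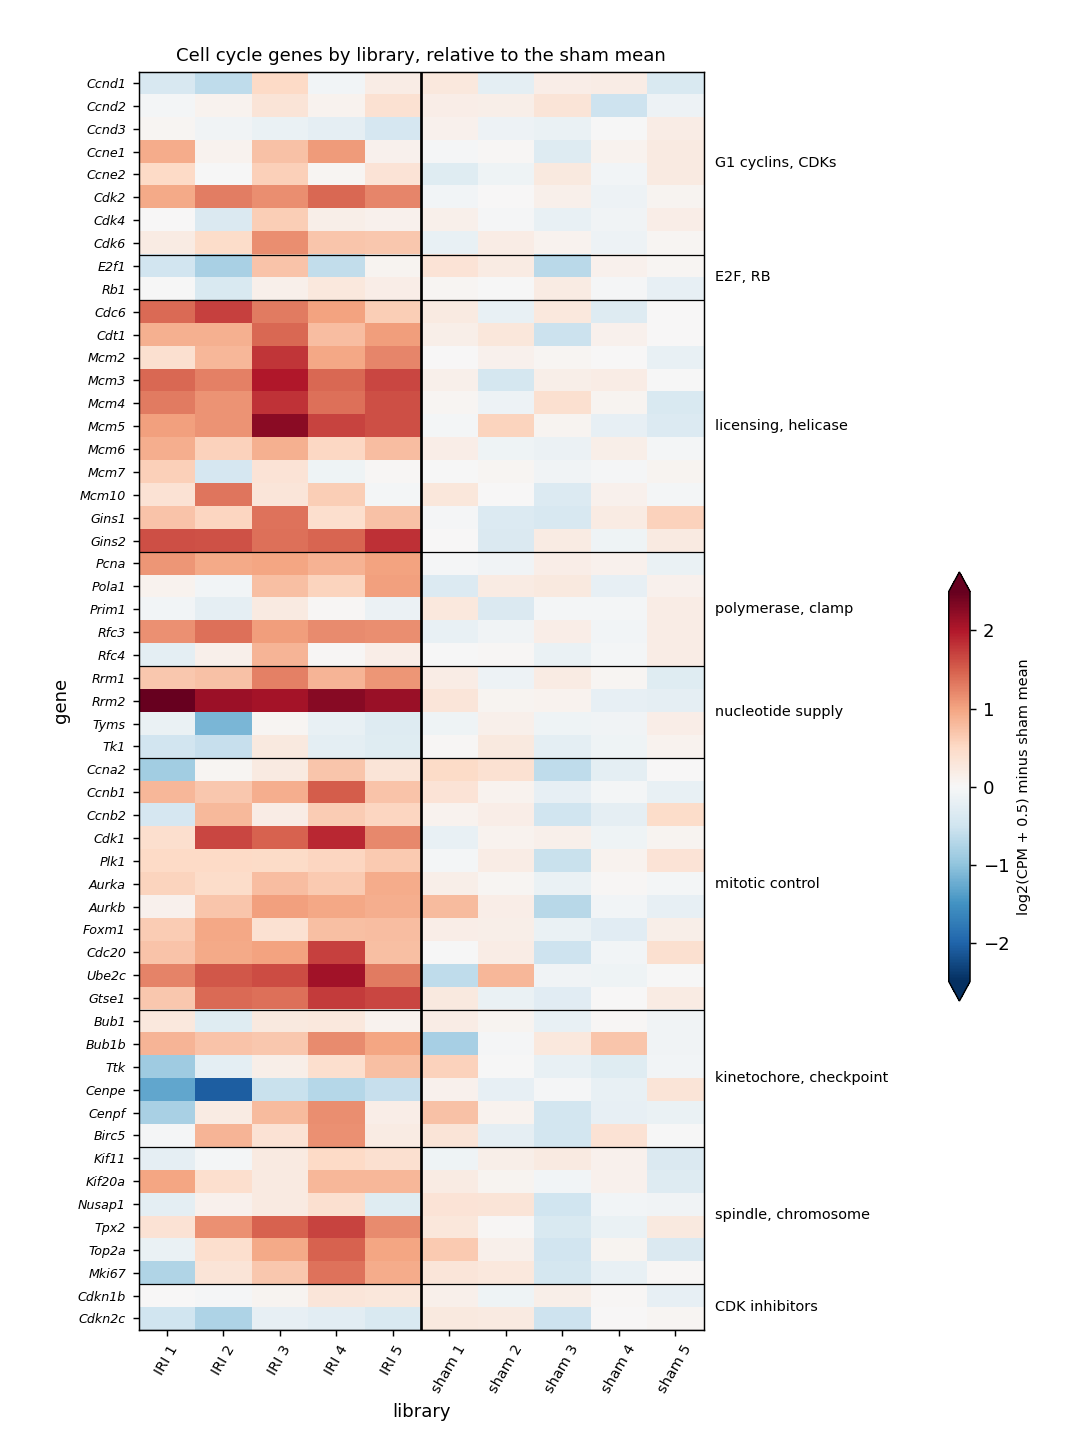
Each row is 1 of the 55 genes and each column 1 library, with the 5 IRI libraries left of the 5 sham libraries. Colour is log2(CPM + 0.5) minus the sham mean, from TMM-scaled CPM, and red is higher than the sham mean. Rrm2 and the Mcm3, Mcm4 and Mcm5 rows are red in all IRI libraries, and the Cenpe row is blue in all 5.

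**Figure D2:**
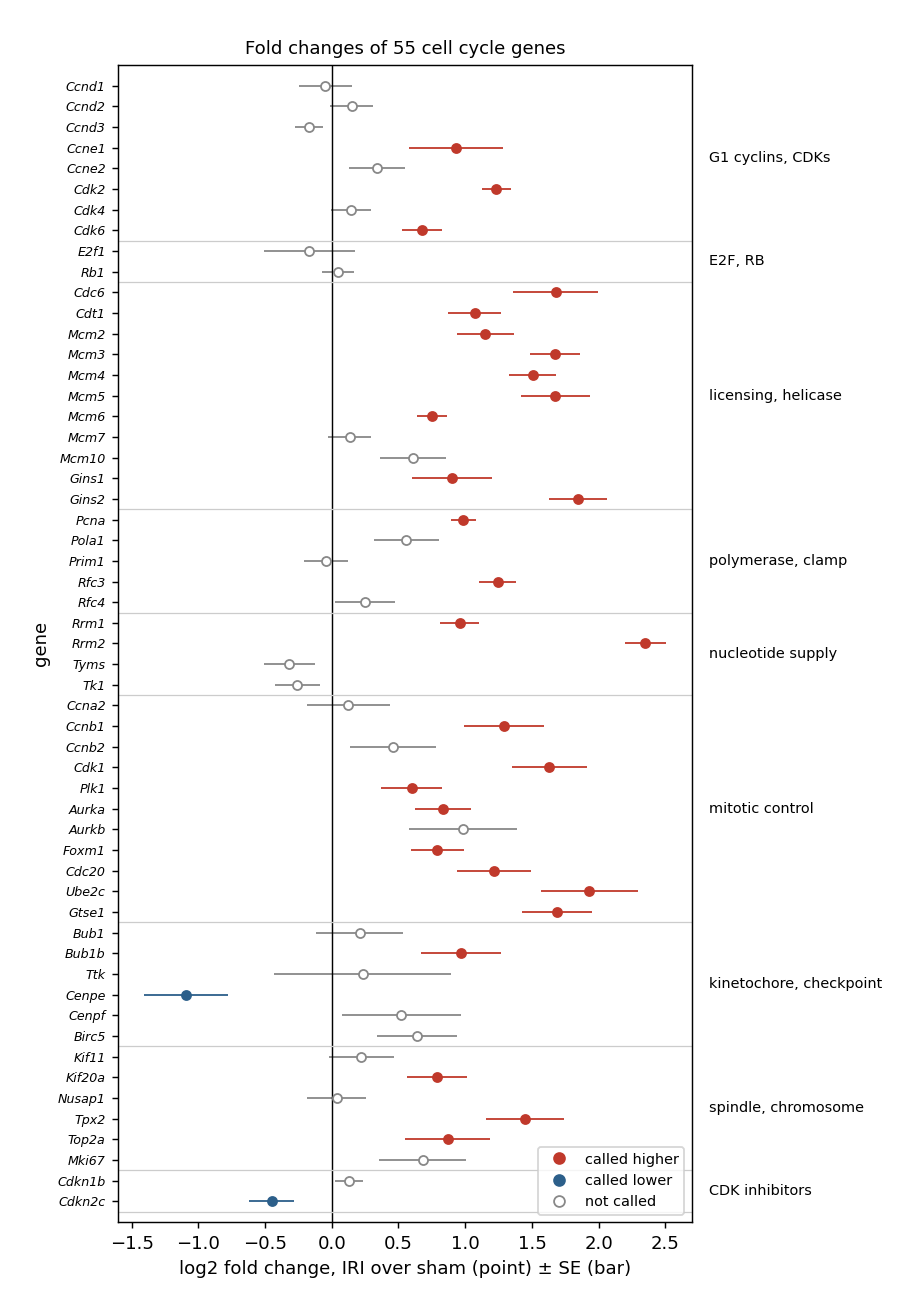
Points are edgeR log2 fold changes, IRI over sham, of the 55 genes, with standard errors as bars. Rrm2 lies farthest to the higher side at 2.35 and Cenpe farthest to the lower side at -1.09.

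The G1 cyclins and kinases had 3 of 8 genes higher (37.5%) and 0 lower (also 0 lower at an unadjusted p under 0.05, by DESeq2 and by limma). Over all tested genes 27.2% were higher and 24.9% lower, and these shares stand beside the count of each member list below. Cdk2, the kinase partner of cyclin E, had 6.3, 8.51, 7.87, 9.72 and 8.46 FPKM in IRI replicates 1 to 5, against 2.76, 2.86, 3.35, 2.67 and 3.14 FPKM in sham replicates 1 to 5. The groups did not overlap, and the fitted log2 fold change was 1.23 ± 0.11 (SE, edgeR adjusted p = 5.09e-07). Cdk6, a partner of the D-type cyclins, had 2.65, 3.39, 5.52, 4.06 and 4.04 FPKM in IRI, against 1.79, 2.27, 2.31, 1.88 and 2.18 FPKM in sham, which also did not overlap. Its log2 fold change was 0.68 ± 0.15 (SE, edgeR adjusted p = 0.00198). Ccne1, encoding cyclin E1, had 0.72, 0.34, 0.65, 0.88 and 0.36 FPKM in IRI, against 0.25, 0.26, 0.18, 0.28 and 0.34 FPKM in sham. Its groups touched at 0.34 FPKM, and the call at a log2 fold change of 0.93 ± 0.35 (edgeR adjusted p = 0.0382) was lost without any 1 of IRI replicates 1, 3 and 4 or sham replicates 1 to 4, with edgeR adjusted p up to 0.115.

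Cyclin D1 is the abundant D-type cyclin of this set. Ccnd1 had 18.78, 17.12, 38.12, 26.01 and 31.66 FPKM in IRI, against 27.2, 18.56, 26.56, 25.55 and 17.84 FPKM in sham. IRI replicates 3 and 5 lay above all sham libraries and IRI replicate 2 below them, and the log2 fold change of -0.05 ± 0.20 was not called (edgeR adjusted p = 0.861). Ccnd2, Ccnd3, Ccne2 and Cdk4 were not called either, with log2 fold changes of -0.17 to 0.34. Ccne2, encoding cyclin E2, was called higher with library totals as the scaling (0.56, edgeR adjusted p = 0.042), and it overlaps Ints8, a gene with more counts, on the other strand. Of the E2F and RB genes, E2f1 averaged 1.01 ± 0.568 FPKM in IRI and 0.968 ± 0.245 FPKM in sham, and Rb1 averaged 7.98 ± 1.42 FPKM in IRI and 6.59 ± 0.802 FPKM in sham (SD, n = 5 each). Neither E2f1 (log2 fold change -0.17) nor Rb1 (0.05) passed the test. The FPKM ratio of Cdk2 to Cdk4 was 0.230 to 0.494 in IRI and 0.136 to 0.194 in sham. This ratio and those below were picked after the values were seen and are descriptions.

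Genes of origin licensing and the replicative helicase had the largest share of higher genes among the member lists, with 9 of 11 higher. Of the 11, 0 were lower (0 also at an unadjusted p under 0.05, by DESeq2 and by limma). The median log2 fold change over all 11 was 1.15. Gins2, a subunit of the GINS complex that joins the MCM helicase, had 1.35, 1.43, 1.23, 1.3 and 1.75 FPKM in IRI, against 0.33, 0.22, 0.42, 0.3 and 0.41 FPKM in sham. The groups did not overlap, and the log2 fold change was 1.85 ± 0.21 (SE, edgeR adjusted p = 7.35e-06). Gins2 overlaps Gse1 on the other strand, which has more counts. Cdc6, a loader of the helicase, had 0.55, 0.74, 0.54, 0.43 and 0.31 FPKM in IRI, against 0.17, 0.1, 0.19, 0.09 and 0.14 FPKM in sham. Every IRI library was above every sham library, with a log2 fold change of 1.68 ± 0.32 (SE, edgeR adjusted p = 0.000537). Its partner Cdt1 had 3.01, 3.22, 4.84, 3.01 and 3.73 FPKM in IRI, against 1.56, 1.68, 0.97, 1.52 and 1.46 FPKM in sham, and its log2 fold change was 1.07 ± 0.20 (SE, edgeR adjusted p = 0.00041).

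The MCM helicase has 6 subunits that form a ring around DNA, and 5 of them were higher in IRI. Mcm5 had 2.34, 2.7, 6.12, 4.16 and 4.02 FPKM in IRI, against 0.94, 1.45, 1.1, 0.83 and 0.77 FPKM in sham. Its log2 fold change was 1.68 ± 0.26 (SE, edgeR adjusted p = 9.3e-05) and the groups did not overlap. Mcm3 averaged 4.33 ± 0.995 FPKM in IRI and 1.16 ± 0.229 FPKM in sham, and Mcm4 5.78 ± 1.21 FPKM in IRI and 1.74 ± 0.424 FPKM in sham (SD, n = 5 each). Mcm3 (log2 fold change 1.67), Mcm2 (1.15), Mcm6 (0.75) and Mcm4 (2.84-fold on the linear scale) were called, and none of their groups overlapped. Mcm7 had 7.93, 4.14, 7.19, 5.28 and 5.88 FPKM in IRI, against 4.7, 4.75, 4.65, 4.62 and 5.08 FPKM in sham. IRI replicate 2 lay below all sham libraries and the other 4 above them, and the log2 fold change of 0.13 ± 0.16 was not called (edgeR adjusted p = 0.519). Mcm7 overlaps Cops6 and Ap4m1 on the other strand, both with more counts, and it is not known here whether counting used strand. The FPKM ratio of Mcm7 to Mcm3 was 1.21 to 2.18 in IRI and 3.50 to 6.17 in sham. The ratios of Mcm6 to Mcm3 (1.80 to 2.73 in IRI and 3.35 to 5.49 in sham) and of Mcm2 to Mcm3 (0.533 to 0.956 in IRI and 1.02 to 1.78 in sham) also lay lower in IRI, while those of Mcm4 and of Mcm5 to Mcm3 overlapped between the groups.

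**Figure D3:**
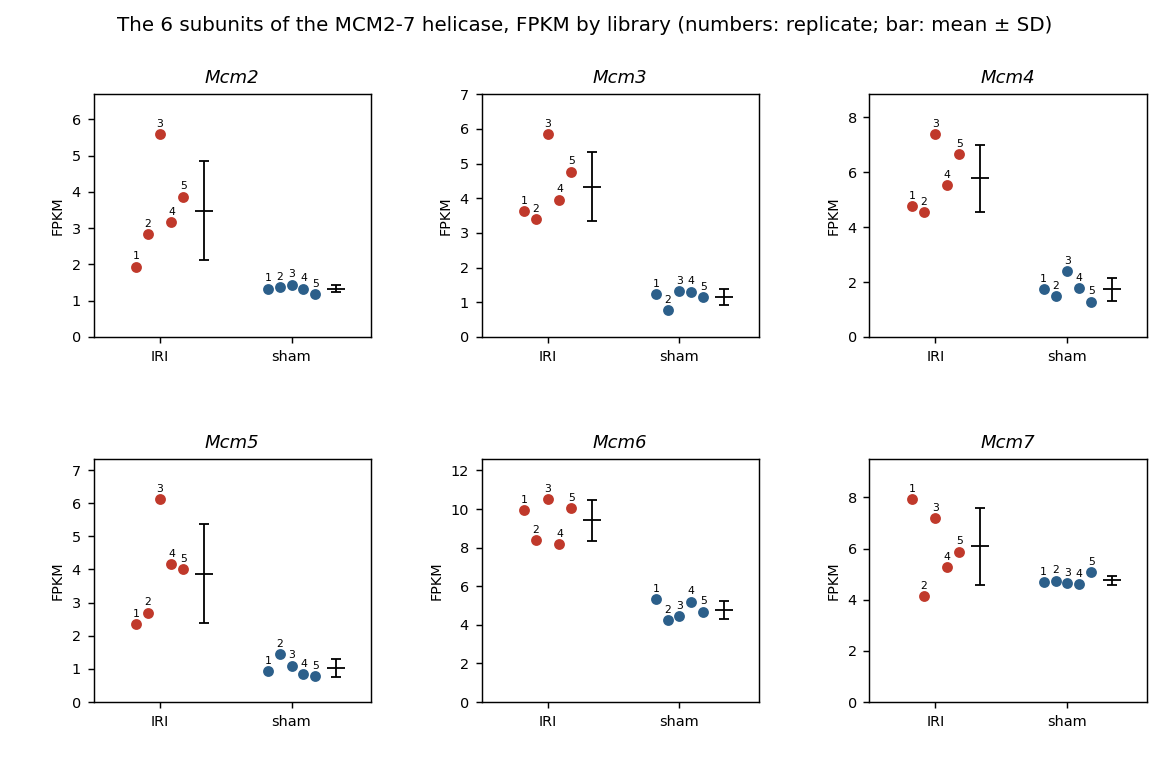
FPKM of the 6 MCM helicase subunits by library, with IRI left of sham, replicate numbers beside the points, and bars for the mean ± SD of 5 libraries. Mcm2, Mcm3, Mcm4, Mcm5 and Mcm6 separate the groups, and Mcm7 spans 4.14 to 7.93 FPKM in IRI around 4.62 to 5.08 FPKM in sham.

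Gins1, another GINS subunit, was called at a log2 fold change of 0.90 ± 0.30 (edgeR adjusted p = 0.0208), and the call was lost without IRI replicate 3 or sham replicate 2 (adjusted p up to 0.0696). Mcm10, an origin firing factor, was not called at 0.61 ± 0.25 (edgeR adjusted p = 0.0513), and it was called without IRI replicate 1, 3 or 5 or sham replicate 1 (adjusted p down to 0.0185).

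Among polymerase and clamp genes, Pcna and Rfc3 were higher and 0 of 5 were lower (0 also at an unadjusted p under 0.05, by DESeq2 and by limma). Pcna, the sliding clamp that holds polymerases on DNA, had 30.86, 29.54, 30.74, 28.4 and 31.81 FPKM in IRI, against 12.53, 11.8, 15.18, 13.92 and 11.85 FPKM in sham. The IRI libraries lay close together and well above sham, with a log2 fold change of 0.99 ± 0.09 (SE, edgeR adjusted p = 9.89e-07). Rfc3, a subunit of the loader of that clamp, had 3.8, 4.78, 3.81, 4.22 and 4.26 FPKM in IRI, against 1.29, 1.34, 1.75, 1.41 and 1.74 FPKM in sham, and the groups did not overlap. Its log2 fold change was 1.24 ± 0.14 (SE, edgeR adjusted p = 4.43e-06). Rfc4, another subunit of the loader, had 2.21, 3.18, 5.47, 2.98 and 3.37 FPKM in IRI, against 2.41, 2.42, 2.27, 2.32 and 2.87 FPKM in sham. The groups overlapped, IRI replicate 3 was the highest, and the log2 fold change of 0.25 ± 0.22 was not called (edgeR adjusted p = 0.373). Rfc4 overlaps Eif4a2, a gene with more counts, on the other strand. Pola1, the catalytic subunit of DNA polymerase alpha, was not called at 0.56 ± 0.24 (edgeR adjusted p = 0.0687) and was called without IRI replicate 1 or 2 (adjusted p down to 0.0278). Prim1, a primase subunit, was not called at -0.04.

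Ribonucleotide reductase makes the deoxynucleotides for DNA synthesis, and both of its subunit genes in this set rose. Rrm2 had 10.96, 8.81, 8.38, 9.76 and 9.18 FPKM in IRI, against 1.94, 1.57, 1.74, 1.31 and 1.33 FPKM in sham. The lowest IRI library was several times the highest sham library, and the log2 fold change of 2.35 ± 0.15 (SE, edgeR adjusted p = 4.7e-08) was the largest of the 55. Rrm2 (ENSMUSG00000020649) lies at chr12:24758240-24764145 in the deposited table (GRCm39). Rrm1, the large subunit, averaged 2.32 ± 0.469 FPKM in IRI and 1.01 ± 0.163 FPKM in sham (SD, n = 5 each), with a log2 fold change of 0.96 ± 0.15 (SE, edgeR adjusted p = 9.13e-05). The FPKM ratio of Rrm2 to Rrm1 was 2.89 to 6.12 in IRI and 1.27 to 1.80 in sham. Tyms, which makes thymidylate, was not called at -0.32 ± 0.19. Tk1, thymidine kinase, had 1.9, 1.9, 3.42, 2.44 and 2.39 FPKM in IRI, against 2.45, 2.8, 2.13, 2.23 and 2.64 FPKM in sham. The groups overlapped and Tk1 was not called at -0.26 (edgeR adjusted p = 0.216), but without IRI replicate 3 it was called lower at -0.43 (adjusted p = 0.0212). Tk1 overlaps Afmid on the other strand, which has more counts and a log2 fold change of -2.49, and the part of Afmid reads in the Tk1 values was not tested.

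**Figure D4:**
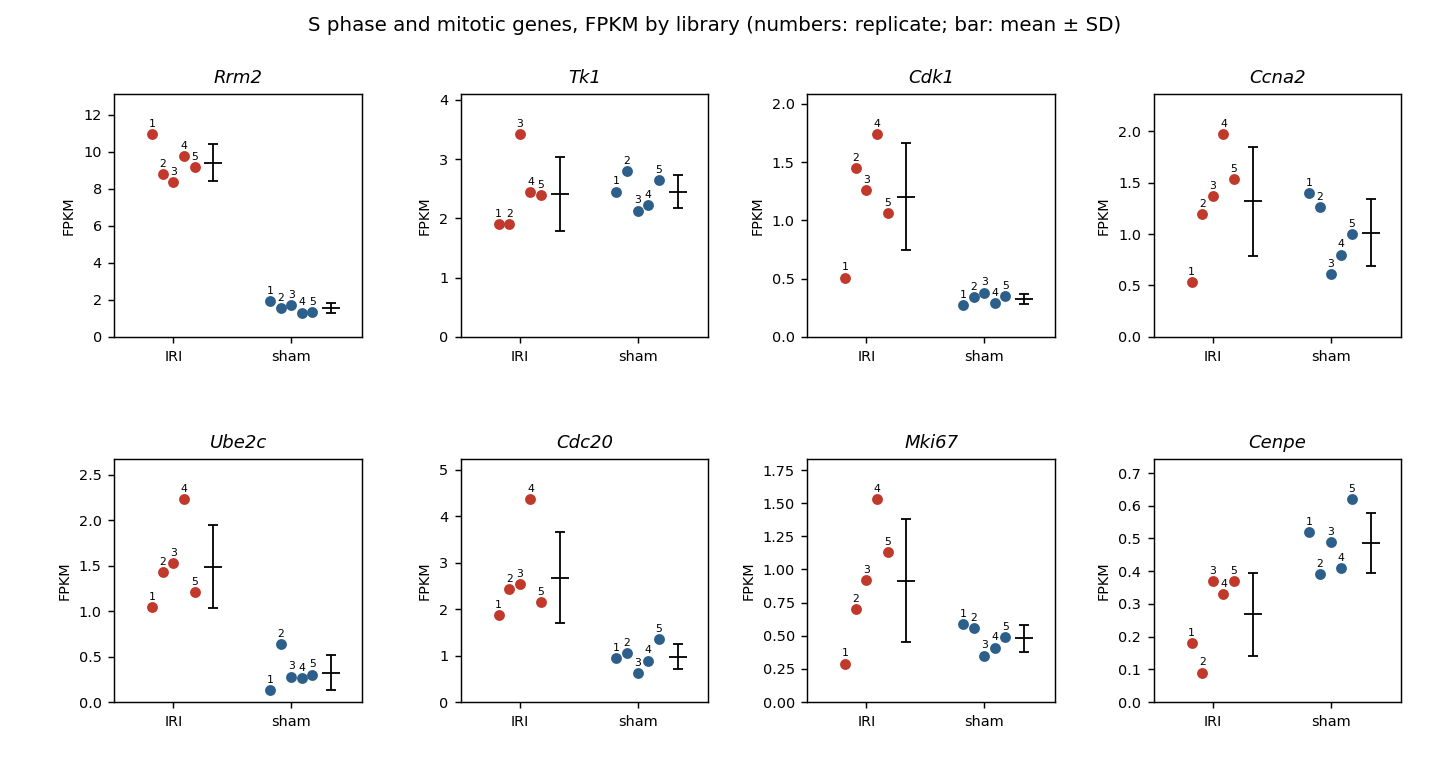
FPKM of example genes by library, with IRI left of sham and bars for the mean ± SD of 5 libraries. Rrm2 spans 8.38 to 10.96 FPKM in IRI and 1.31 to 1.94 FPKM in sham, while Tk1 overlaps between the groups.

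Promoter sequence was available for 43 of the 55 genes, as the 250 bases before the start of the gene in RefSeq (build GRCm38.p6). Both strands were searched for E2F-like letters, which were TTCCCGC and also the run TTGGCGC, for the CHR-like letters TTTGAA of the cell cycle genes homology region, and for the CCAAT box. The complement of the second, GCGCCAA, overlaps the CCAAT box when followed by a T. Shares are per gene, and a gene counted if any of its listed promoters held the letters. E2F-like letters were in 8 of 23 G1 and replication promoters (34.8%), in 3 of 18 mitotic promoters (16.7%) and in 6.45% of 27025 genes. CHR-like letters were in 1 of 23 G1 and replication promoters (4.35%), in 7 of 18 mitotic promoters (38.9%) and in 18.26% of all. CCAAT was in 14 of 23 (60.9%), in 16 of 18 (88.9%) and in 37.49% of all. Among the G1 and replication promoters, E2F-like letters were in those of 5 of 13 called genes (38.5%, namely Cdc6, Cdk2, Mcm5, Mcm6 and Rrm1) and of 3 of 10 uncalled genes (Mcm7, Pola1 and Prim1). A match describes the letters and was not tested as a site. The windows below are of 3 of the called holders (Mcm5, Mcm6 and Cdk2), as examples, and of Rrm2, whose fold change was the largest and whose window holds CCAAT but no E2F-like letters. They are written 5′ to 3′ along the gene with matches in capitals, at chr8:75109259-75109508 (plus strand) for Mcm5, chr1:128359706-128359955 (minus strand) for Mcm6, chr10:128705052-128705301 (minus strand) for Cdk2 and chr12:24708004-24708253 (plus strand) for Rrm2.
Mcm5: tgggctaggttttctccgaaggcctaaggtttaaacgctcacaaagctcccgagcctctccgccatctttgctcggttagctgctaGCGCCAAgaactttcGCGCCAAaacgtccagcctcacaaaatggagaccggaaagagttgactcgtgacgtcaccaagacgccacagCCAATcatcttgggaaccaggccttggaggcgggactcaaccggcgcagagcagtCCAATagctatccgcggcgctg
Mcm6: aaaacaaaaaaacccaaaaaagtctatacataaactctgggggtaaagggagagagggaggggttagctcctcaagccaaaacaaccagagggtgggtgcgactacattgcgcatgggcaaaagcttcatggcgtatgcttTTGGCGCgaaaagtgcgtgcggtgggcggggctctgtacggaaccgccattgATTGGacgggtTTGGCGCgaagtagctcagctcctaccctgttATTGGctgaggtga
Cdk2: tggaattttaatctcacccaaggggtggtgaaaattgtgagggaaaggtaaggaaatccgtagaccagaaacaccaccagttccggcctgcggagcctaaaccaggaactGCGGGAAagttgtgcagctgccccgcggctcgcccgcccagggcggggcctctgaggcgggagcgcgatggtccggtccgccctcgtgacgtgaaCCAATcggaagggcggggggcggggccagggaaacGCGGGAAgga
Rrm2: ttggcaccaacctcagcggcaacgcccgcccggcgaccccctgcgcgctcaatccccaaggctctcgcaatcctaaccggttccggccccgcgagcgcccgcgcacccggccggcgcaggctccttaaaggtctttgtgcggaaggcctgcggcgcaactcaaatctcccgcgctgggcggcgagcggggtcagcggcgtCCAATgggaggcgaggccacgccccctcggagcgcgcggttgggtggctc

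Of the mitotic control genes, 8 of 11 were higher and 0 lower (0 also at an unadjusted p under 0.05, by DESeq2 and by limma), with a median log2 fold change of 0.98. CHR-like letters were in 4 of 9 promoters of called mitotic genes (44.4%) and in 3 of 9 of the others (33.3%). The windows below are of 3 of the called holders, as examples, written in the same way, at chr10:69352913-69353162 (minus strand) for Cdk1, chr4:118437344-118437593 (minus strand) for Cdc20 and chr2:164769679-164769928 (plus strand) for Ube2c.
Cdk1: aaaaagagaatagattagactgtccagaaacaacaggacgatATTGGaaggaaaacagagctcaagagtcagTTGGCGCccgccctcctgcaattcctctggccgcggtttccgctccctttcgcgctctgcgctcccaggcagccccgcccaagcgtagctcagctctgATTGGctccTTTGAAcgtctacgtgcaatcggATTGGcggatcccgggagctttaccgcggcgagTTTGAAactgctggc
Cdc20: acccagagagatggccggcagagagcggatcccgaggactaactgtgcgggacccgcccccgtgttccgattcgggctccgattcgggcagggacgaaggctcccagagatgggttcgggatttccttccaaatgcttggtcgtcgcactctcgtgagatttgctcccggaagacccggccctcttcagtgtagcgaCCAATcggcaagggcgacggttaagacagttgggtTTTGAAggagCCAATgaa
Ube2c: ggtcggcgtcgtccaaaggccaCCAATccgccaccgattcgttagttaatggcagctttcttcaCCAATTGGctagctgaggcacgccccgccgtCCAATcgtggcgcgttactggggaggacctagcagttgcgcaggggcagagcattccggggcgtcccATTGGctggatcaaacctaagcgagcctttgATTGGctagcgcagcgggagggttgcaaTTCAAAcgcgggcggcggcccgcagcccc

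Cdk1, the kinase that starts mitosis, had 0.51, 1.45, 1.26, 1.74 and 1.06 FPKM in IRI, against 0.27, 0.34, 0.38, 0.29 and 0.35 FPKM in sham. IRI replicate 1 was the lowest of its group and still above sham, and the log2 fold change was 1.63 ± 0.28 (SE, edgeR adjusted p = 0.000235). Ube2c, an E2 enzyme of the anaphase-promoting complex, had 1.04, 1.43, 1.53, 2.23 and 1.21 FPKM in IRI, against 0.13, 0.64, 0.28, 0.26 and 0.3 FPKM in sham. The groups did not overlap, and the log2 fold change was 1.93 ± 0.36 (SE, edgeR adjusted p = 0.000484). Gtse1, a microtubule-associated protein of G2, had 0.99, 1.91, 1.85, 2.5 and 2.4 FPKM in IRI, against 0.61, 0.41, 0.4, 0.5 and 0.62 FPKM in sham, with a log2 fold change of 1.69 ± 0.26 (SE, edgeR adjusted p = 9.69e-05). Cdc20, an activator of the anaphase-promoting complex, had 1.88, 2.44, 2.54, 4.37 and 2.16 FPKM in IRI, against 0.94, 1.06, 0.62, 0.89 and 1.36 FPKM in sham. All IRI values exceeded all sham values, and the log2 fold change was 1.22 ± 0.28 (SE, edgeR adjusted p = 0.00203).

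Ccnb1 (cyclin B1), Aurka (a spindle kinase) and Foxm1 (a transcription factor of mitotic genes) were called at log2 fold changes of 1.29, 0.83 and 0.79, each with no overlap between groups. Plk1, a mitotic kinase, was called at 0.60 ± 0.23 (edgeR adjusted p = 0.0403). That call was lost without any 1 of the 5 IRI libraries or sham replicates 1, 3 and 4 (adjusted p up to 0.0818), and with RLE scaling. Ccna2, encoding cyclin A2, had 0.53, 1.19, 1.37, 1.97 and 1.53 FPKM in IRI, against 1.4, 1.26, 0.61, 0.8 and 1 FPKM in sham. The groups overlapped widely and the log2 fold change of 0.12 ± 0.31 was not called (edgeR adjusted p = 0.76). The FPKM ratio of Cdk1 to Ccna2 was 0.693 to 1.22 in IRI and 0.193 to 0.623 in sham. Ccna2 overlaps Exosc9 and Cdc20 overlaps Elovl1, in each case a gene with more counts on the other strand. Ccnb2 (cyclin B2) was not called at 0.46 ± 0.32. Aurkb, a kinase of the chromosomal passenger complex, was not called at 0.98 ± 0.40 (edgeR adjusted p = 0.0547) and was called without IRI replicate 1 or sham replicate 1 (adjusted p down to 0.0105).

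The kinetochore and checkpoint genes were low, and all 6 averaged under 1 FPKM over the 10 libraries. Of them, 1 was higher and 1 lower. Bub1b, a spindle checkpoint kinase, had 0.86, 0.84, 0.81, 1.24 and 1.07 FPKM in IRI, against 0.17, 0.36, 0.51, 0.69 and 0.37 FPKM in sham. The groups did not overlap and Bub1b was called at 0.97 ± 0.30 (SE, edgeR adjusted p = 0.0141). Cenpe, a kinetochore motor protein, had 0.18, 0.09, 0.37, 0.33 and 0.37 FPKM in IRI, against 0.52, 0.39, 0.49, 0.41 and 0.62 FPKM in sham. Every IRI library lay below every sham library, as for 13.9% of tested genes, and the log2 fold change was -1.09 ± 0.31 (SE, edgeR adjusted p = 0.00968). The checkpoint kinase genes Bub1 (log2 fold change 0.21) and Ttk (0.23) and the kinetochore gene Cenpf (0.52) were not called, and Ttk had 0 FPKM in IRI replicate 1. Birc5 (survivin) averaged 1.12 ± 0.460 FPKM in IRI and 0.61 ± 0.174 FPKM in sham (SD, n = 5 each) and was not called at 0.64 ± 0.30 (edgeR adjusted p = 0.0909), but was called without IRI replicate 1 (adjusted p = 0.0426).

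Of the spindle and chromosome genes, 3 of 6 were higher and 0 lower (0 also at an unadjusted p under 0.05, by DESeq2 and by limma). Tpx2, a spindle assembly factor, had 0.46, 0.93, 1.21, 1.44 and 0.99 FPKM in IRI, against 0.39, 0.3, 0.22, 0.26 and 0.39 FPKM in sham. The groups did not overlap and the log2 fold change was 1.45 ± 0.29 (SE, edgeR adjusted p = 0.00085). Kif20a, a kinesin of cytokinesis, was called at 0.79 ± 0.23 (edgeR adjusted p = 0.00989), and it overlaps Cdc23, a gene with more counts, on the other strand. Top2a, which untangles DNA, had 0.35, 0.59, 0.88, 1.32 and 0.94 FPKM in IRI, against 0.59, 0.39, 0.26, 0.38 and 0.27 FPKM in sham. IRI replicate 1 lay within the sham range and IRI replicate 2 at its top, and the call at 0.87 ± 0.32 (edgeR adjusted p = 0.0353) was lost without any 1 of IRI replicates 3 to 5 or sham replicates 2 to 5 (adjusted p up to 0.113). Mki67, the proliferation marker Ki-67, had 0.29, 0.7, 0.92, 1.53 and 1.13 FPKM in IRI, against 0.59, 0.56, 0.35, 0.41 and 0.49 FPKM in sham. IRI replicate 1 was below every sham library and the other 4 were above every one. Mki67 was not called over all libraries (log2 fold change 0.68 ± 0.32, edgeR adjusted p = 0.0938) and was called without IRI replicate 1 (0.89, adjusted p = 0.00578). Nusap1 and Kif11, spindle proteins, were not called at 0.04 and 0.22.

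Of the CDK inhibitors in the set, Cdkn2c (p18) averaged 3.78 ± 0.644 FPKM in IRI and 4.39 ± 0.784 FPKM in sham (SD, n = 5 each). It was called lower at -0.45 ± 0.17 (edgeR adjusted p = 0.0397), a call lost without any 1 of IRI replicates 1, 2 and 5 or sham replicates 1, 2, 4 and 5 (adjusted p up to 0.0991), and with library totals as the scaling. Cdkn1b (p27) averaged 14.5 ± 2.05 FPKM in IRI and 11.3 ± 1.37 FPKM in sham and was not called (log2 fold change 0.13 ± 0.10, edgeR adjusted p = 0.323), but was called higher with library totals (0.36).

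The order of the IRI libraries differed between the arms. The median over G1 and replication genes of log2(CPM + 0.5) relative to the sham mean was 0.55, 0.50, 0.87, 0.58 and 0.64 in IRI replicates 1 to 5, and over mitotic genes it was 0.27, 0.50, 0.67, 0.97 and 0.76. In the sham replicates these medians were 0.03, -0.00, 0.08, -0.04 and 0.04 for G1 and replication genes, and 0.21, 0.10, -0.28, -0.07 and -0.01 for mitotic genes. IRI replicate 3 was the highest IRI library for 16 of 30 G1 and replication genes, and for 5036 of all 22543 tested genes. IRI replicate 4 was the highest for 14 of 23 mitotic genes, and for 3483 of all tested genes. IRI replicate 1 was the lowest for 14 of 23 mitotic genes, and for 6158 of all tested genes, and it is the library with the high mitochondrial rRNA, whose part here was not tested. The sham libraries also showed an order in the mitotic genes. Sham replicate 1 was the highest sham library for 14 of 23 mitotic genes (3954 of all tested genes), and sham replicate 3 the lowest for 15 (5652 of all). For G1 and replication genes, sham replicates 3 and 5 were each the highest for 9 of 30 (5366 and 5160 of all). Sham replicate 3 was also the lowest for 11 of those 30.

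**Figure D5:**
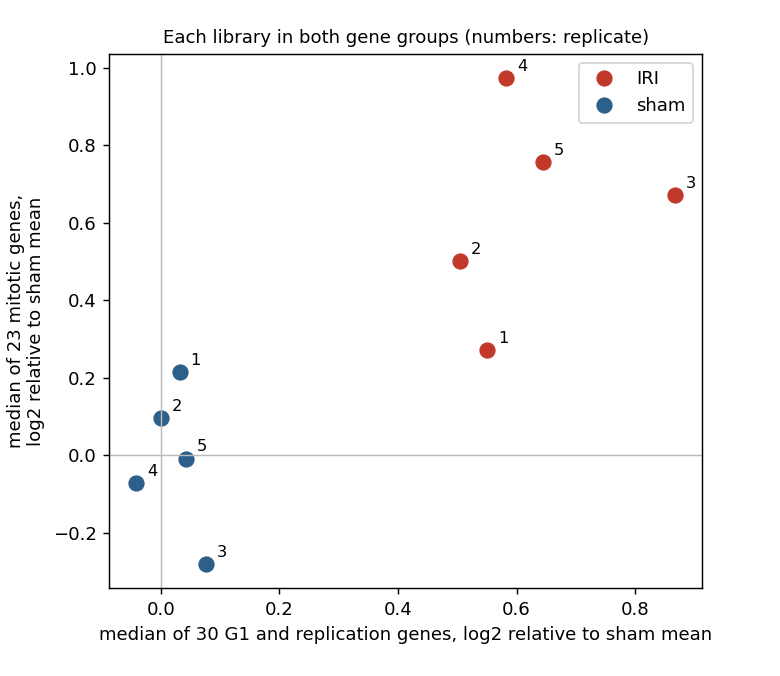
Each point is 1 library, with the median log2(CPM + 0.5) relative to the sham mean over the 30 G1 and replication genes on the x axis and over the 23 mitotic genes on the y axis. The IRI medians run from 0.50 to 0.87 for G1 and replication genes and from 0.27 to 0.97 for mitotic genes.

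Other lists of the cell cycle gave context, and their shares stand beside 27.2% higher and 24.9% lower over all tested genes. Of 14 tested genes of CDK inhibitors and other brakes, 11 were higher (78.6%) and 2 lower (14.3%). Cdkn1a (p21) had 103.42, 141.63, 58.33, 107.22 and 77.78 FPKM in IRI, against 2.84, 3.45, 6.24, 3.6 and 3.95 FPKM in sham, with no overlap and a log2 fold change of 4.38 ± 0.26 (SE, edgeR adjusted p = 2.45e-08). Sfn (14-3-3 sigma, 3.64 ± 0.20) and Gadd45b (a stress-induced growth arrest gene, 2.46 ± 0.44) were also higher, and Tob1 (-0.43) and Ccng1 (-0.26) were lower. Of 18 tested genes of the E2F, RB and DREAM system, 7 were higher (38.9%) and 5 lower (27.8%). Myc, a growth transcription factor, averaged 21.7 ± 4.72 FPKM in IRI and 1.76 ± 0.490 FPKM in sham (SD, n = 5 each), at a log2 fold change of 3.41 ± 0.21. E2f4 (0.99), a repressor E2F, and Mycn (0.88) were higher, and E2f2 (-1.21), Rbl2 (-0.75) and Lin52 (-0.41) lower.

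Of 45 other replication genes, 25 were higher (55.6%) and 5 lower (11.1%). Uhrf1, which keeps DNA methylation through replication, averaged 4.29 ± 1.54 FPKM in IRI and 0.522 ± 0.148 FPKM in sham (SD, n = 5 each), at 2.80 ± 0.27. Chaf1b, of the chromatin assembly factor, was higher at 2.70 ± 0.22, as was Wdhd1 (1.69), and Rrm2b (-0.68) and Rfc2 (-0.64) were lower. Of 61 other mitosis genes, 24 were higher (39.3%) and 3 lower (4.9%). Without IRI replicate 1, 30 were higher, beside 26.7% of all tested genes. Stil, a centriole gene (3.41 ± 0.31), Arhgap11a (3.18 ± 0.29) and Kif23, a kinesin of cytokinesis (2.64 ± 0.28), were higher. Kif20b, also a kinesin, was lower at -3.07 ± 0.17, as were Cks2 (-0.75) and Pttg1 (-0.35).

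Of 18 checkpoint genes, 12 were higher (66.7%) and 4 lower (22.2%), beside 27.2% and 24.9% of all tested genes. Plk3 (2.93 ± 0.24), Pkmyt1 (1.99) and Wee1, a kinase that holds CDK1 inactive (1.89 ± 0.15), were higher, and Chek2 (-0.82), Hus1 (-0.82) and Atm (-0.67) were lower. Of 17 tested proteolysis genes, 6 were higher (35.3%) and 1 lower (5.9%). Without IRI replicate 1, 4 were higher, beside 26.7% of all tested genes. Fbxw7 (0.71), Anapc4 (0.56) and Fzr1 (0.53) were higher and Btrc (-0.54) lower. Of 69 replication-dependent histone genes, 25 were tested, 13 were lower (52% of those tested), and 0 were higher (0 also at an unadjusted p under 0.05, by DESeq2 and by limma). Their FPKM summed to 52.7 to 95.9 in IRI and 212 to 272 in sham. These messages mostly lack a poly(A) tail, so the yield of poly(A) selection and the level of the messages cannot be told apart.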

How the data were processed

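RNA of mouse kidney was sequenced in 10 libraries as paired reads of 150 bases, from 1 µg of total RNA with oligo(dT) selection, per the labels' protocols. The authors deposited 1 table of whole-number counts and of FPKM per gene, with exonic lengths and coordinates. Per the submitters' processing notes, the tools were cutadapt 1.9.1, HISAT2 2.0.1 and HTSeq 0.6.1, with build GRCm39, and whether counting used strand is not stated. Each deposited FPKM equalled count over exonic length and library total (100% of values, tolerance 0.0051 or 0.1%). Symbols were matched by Ensembl identifier for 52083 of 55359 genes.

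Deposited counts of genes with at least 10 counts over all libraries (22543) were tested with edgeR 4.0.16 in R 4.3.3 (quasi-likelihood, TMM, Benjamini-Hochberg, calls at adjusted p under 0.05), and the code was tested on simulated data. Standard errors are the fold change over the square root of F. FPKM is scaled by library totals and fold changes by TMM factors, so their ratios differ. Scaling by library totals would raise log2 fold changes by a median of 0.23. Library totals limit precision for the low mitotic genes. Alternatives were RLE scaling, library totals, DESeq2 1.42.0, limma 3.58.1 on log2(FPKM + 1) and on log2(FPKM + 0.1), other filters, a stricter threshold, a replicate block and leaving out each library.

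The members and gene lists were chosen with earlier results of these data known. Genes taken by rule were, per member list, up to 3 called genes of largest change and the uncalled gene of highest FPKM, and in other lists up to 3 called genes per direction averaging at least 0.5 FPKM. Some of them are given with a mean ± SD or a fold change only, without values per library. Cdkn1a was always given. Of the genes so taken, 1 is not reported here. Members outside the rule are named for their role, and Cdt1, Cdc20, Ccna2 and Mki67 among them have values per library. Histone genes were matched by their older symbols, and Lin54 and Skp1 were not matched. Replicate numbers came from the sample titles, and same-numbered libraries did not deviate together (correlations -0.119 to 0.016). Promoters came from RefSeq.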

Additional observations from a re-analysis of the deposited data

Results flagged for a closer look

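Among 110 groups of 5 libraries (55 genes, IRI and sham), 5 held a library far from the others of its group by Dixon's test at the critical value of 0.71, and chance flags about 1 in 20. Ccnb1 was 0.9 FPKM in IRI replicate 4, above the rest of IRI. Cdc20 was 4.37 FPKM in IRI replicate 4. Mcm7 was 5.08 FPKM in sham replicate 5, and Rfc4 was 2.87 FPKM in the same library. Ttk was 0.16 FPKM in sham replicate 1.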

How the results depend on the processing

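Leaving out each library in turn gave 5581 to 6033 genes called higher and 5228 to 5695 lower over all genes, 14 to 17 higher and 0 to 1 lower among G1 and replication genes, 10 to 14 higher and 1 lower among mitotic genes, and 0 to 1 lower and 0 higher among the CDK inhibitors. Medians were 0.67 to 0.75 (G1 and replication) and 0.62 to 0.84 (mitotic). Of the CDK inhibitors, 1 was higher and 0 lower with library totals and with limma at either pseudocount, and 0 were lower with the replicate block and at an adjusted p under 0.01. The G1 and replication median was 0.95 with library totals, 0.40 with limma on log2(FPKM + 1) and 0.86 with limma on log2(FPKM + 0.1), and the mitotic median was 0.38 with limma on log2(FPKM + 1). At 1 FPKM in 5 libraries, 7 of 23 mitotic genes passed, with 4 higher and 0 lower. Of the called ones, Aurka and Ube2c passed through the IRI libraries alone (at most 0.69 and 0.64 FPKM in sham). These counts are therefore not an independent check. The settings differ in the genes that pass, in the pseudocount and in the scaling, and the cause of these shifts was not tested. With the replicate block, 5369 genes were higher and 5022 lower, with 15 G1 and replication and 10 mitotic genes higher, and Ccne1, Top2a, Plk1 and Cdkn2c lost their calls. The labels do not say that replicate numbers pair the libraries. Among the 55 genes, no called gene turned sign under these alternatives, while signs of uncalled genes turned for Nusap1 (-0.0014 with RLE, -0.0010 with DESeq2, -0.0802 to 0.1357 without 1 library), Ccnd1 (0.19 with library totals, 0.14 and 0.14 with limma, -0.2288 to 0.0637), Mcm7 (-0.0285 to 0.2399), Rb1 (-0.0173 to 0.1284), Cdk4 (-0.02 to 0.24 without 1 library), Prim1 (-0.13 to 0.03, and 0.18 with library totals), Ccna2 (-0.07 to 0.30), Ttk (-0.19 to 0.60), Ccnd3 (0.05 with library totals) and E2f1 (0.07 with library totals). Limma turned Ccnd3 and Prim1 as library totals did. Ccne2, Mcm10, Pola1, Aurkb, Birc5 and Mki67 were called higher with library totals. Library totals made 65.3% of all calls higher, against 52.1% with TMM. Low counts limit what can be detected for the mitotic genes.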
